A study of Sus scrofa with 13 samples.

Results

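Myostatin, bone morphogenetic protein (BMP) and SMAD signalling was examined through 10 genes in the longissimus lumborum, the main muscle of the pork loin. The genes were taken by symbol from a list of 3 ligands (MSTN, BMP4 and BMP5), 1 extracellular inhibitor (FST), 4 receptors (ACVR2A, ACVR2B, BMPR2 and TGFBR1) and 2 SMADs (SMAD3 and SMAD4), where the counts of both breeds held them. All 10 were found among the 25322 Ensembl genes counted. RNA from the muscle of 13 female pigs, 6 months old, was sequenced. The Hampshire breed gave 3 pigs of high loin weight (heavy-loin pigs, or Hampshire high) and 3 of low loin weight (light-loin pigs, or Hampshire low), and the Pietrain breed gave 4 and 3. According to the study's methods, the pigs were unrelated, were kept alike, were slaughtered at a similar body weight, and were picked from the extremes of a larger population by the weight of the dissected loin muscle. No pig carried a treatment. The comparisons asked how the muscle differs between pigs of the same breed with heavy and light loins.

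Myostatin, the product of MSTN, is a secreted protein of muscle fibres that limits muscle mass, and animals that lack it are heavily muscled. It binds the activin type II receptors ACVR2B and ACVR2A, which recruit a type I receptor such as TGFBR1, and the signal passes through SMAD2 and SMAD3, which enter the nucleus with SMAD4. Follistatin, from FST, binds myostatin and activins and keeps them from their receptors. BMP4 and BMP5 act through BMPR2 or the activin type II receptors and through SMAD1, SMAD5 and SMAD9, which also pair with SMAD4, and in muscle this arm is known to favour fibre growth.

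Total counts per pig ranged from 11312755 to 20134612, and all 15 pairs of pigs within a group differed by more than sampling noise, so each pig was a replicate. The 6 matched skeletal muscle markers summed to between 78647 and 223683 CPM (counts scaled to library size) over the 13 pigs, so markers of the labelled tissue were abundant in every library. Levels are CPM after TMM normalization over all pigs, which corrects for library size and composition but not for gene length, so levels of different genes were not compared. On the Sscrofa10.2 assembly the deposited positions were chr1:203773959-203776407 for BMP4, chr16:34778435-34785305 for FST, chr15:3828378-3911122 for ACVR2A, chr15:117425964-117597333 for BMPR2, chr1:269089548-269149052 for TGFBR1, chr1:182898590-182926415 for SMAD3 and chr1:110509117-110563187 for SMAD4. These are whole gene spans, exons and introns together. MSTN (ENSSSCG00000016047), BMP5 (ENSSSCG00000001478) and ACVR2B (ENSSSCG00000011257) were identified by Ensembl number, with names from RefSeq.

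MSTN was highest in Pietrain pigs. It stood at 9.67, 7.00 and 12.6 CPM in Hampshire high and at 21.5, 10.3 and 13.2 CPM in Hampshire low. In Pietrain high it stood at 38.8, 16.1, 22.8 and 26.3 CPM and in Pietrain low at 22.7, 59.4 and 30.8 CPM. Within each breed the heavy and light loin groups overlapped, whereas every light-loin Pietrain pig lay above every Hampshire pig, and every heavy-loin Pietrain pig lay above every heavy-loin Hampshire pig. The group means ran from 37.6 ± 19.2 CPM (SD, n = 3) in Pietrain low through 26.0 ± 9.53 (n = 4) in Pietrain high and 15.0 ± 5.81 (n = 3) in Hampshire low to 9.76 ± 2.80 (n = 3) in Hampshire high, and the ranges of neighbours in this order overlapped.

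The BMP ligands had their highest group means in heavy-loin Hampshire pigs. BMP4 stood at 12.7, 6.36 and 10.9 CPM there, against 4.35, 4.33 and 4.55 CPM in Hampshire low. It had 3.18, 2.17, 3.31 and 4.00 CPM in Pietrain high and 4.43, 2.45 and 2.15 CPM in Pietrain low. All 3 Hampshire pigs with heavy loins thus lay above the other 10 pigs and the 3 light-loin Hampshire pigs lay close together. For BMP5 the values were 2.79, 6.18 and 5.12 CPM in Hampshire high and 1.35, 2.92 and 1.12 CPM in Hampshire low. They were 1.59, 4.75, 3.70 and 1.70 CPM in Pietrain high and 4.19, 1.50 and 2.35 CPM in Pietrain low. The BMP5 ranges of neighbouring groups overlapped throughout, and the gene rested on 16 to 80 counts per pig.

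FST was spread widely among Hampshire pigs with heavy loins, at 5.86, 8.09 and 21.6 CPM, where 1 pig lay far above all others. The light-loin Hampshire pigs had 5.08, 6.12 and 3.92 CPM. Heavy-loin Pietrain pigs had 3.84, 6.78, 11.6 and 4.25 CPM and light-loin Pietrain pigs 8.70, 6.17 and 4.71 CPM. All groups overlapped with their neighbours in the order of means.

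Among the receptors, BMPR2 separated the groups most widely. This type II receptor for BMPs stood at 52.4, 47.8 and 45.0 CPM in Hampshire high and at 95.8, 97.1 and 114 CPM in Hampshire low. In Pietrain high it stood at 153, 138, 150 and 105 CPM and in Pietrain low at 145, 198 and 176 CPM. The 3 Hampshire pigs with heavy loins were the lowest of the 13, with a mean of 48.4 ± 3.71 CPM (SD, n = 3) against 102 ± 10.3 (n = 3), 136 ± 21.9 (n = 4) and 173 ± 26.4 (n = 3) in Hampshire low, Pietrain high and Pietrain low.

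TGFBR1, a type I receptor shared by TGF-β and myostatin, had 24.7, 20.4 and 20.5 CPM in Hampshire high and 34.9, 24.6 and 37.3 CPM in Hampshire low. It had 43.6, 41.5, 68.2 and 29.2 CPM in Pietrain high and 39.7, 56.7 and 46.3 CPM in Pietrain low. Within Hampshire a single light-loin pig, at 24.6 CPM, fell among the heavy-loin pigs, and within Pietrain the groups overlapped fully. The activin type II receptors moved over a narrow range. ACVR2A had 5.18, 5.00 and 4.99 CPM in Hampshire high, 8.21, 6.46 and 5.40 CPM in Hampshire low, 8.47, 6.29, 6.43 and 6.50 CPM in Pietrain high and 7.14, 8.94 and 7.87 CPM in Pietrain low. ACVR2B, to which myostatin binds most tightly, had 2.32, 3.73 and 2.94 CPM in Hampshire high, 3.43, 3.21 and 2.66 CPM in Hampshire low, 6.15, 4.54, 3.57 and 3.85 CPM in Pietrain high and 3.70, 3.32 and 3.16 CPM in Pietrain low. For ACVR2A the Hampshire pigs with heavy loins lay just below all other pigs, and for ACVR2B the neighbouring groups overlapped.

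SMAD4, the partner that both arms of the pathway share, followed the order of BMPR2. It had 43.8, 34.4 and 32.7 CPM in Hampshire high, 61.4, 48.8 and 57.6 CPM in Hampshire low, 87.9, 67.0, 85.7 and 65.0 CPM in Pietrain high and 76.5, 106 and 85.6 CPM in Pietrain low. The Pietrain groups overlapped each other, while Hampshire low lay below both and Hampshire high below all. SMAD3, which carries the myostatin and TGF-β signal, had 44.1, 52.0 and 37.1 CPM in Hampshire high, 32.8, 33.3 and 44.1 CPM in Hampshire low, 49.6, 71.1, 44.1 and 89.0 CPM in Pietrain high and 40.2, 94.5 and 62.2 CPM in Pietrain low. No neighbouring SMAD3 groups were apart.

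**Figure D1:**
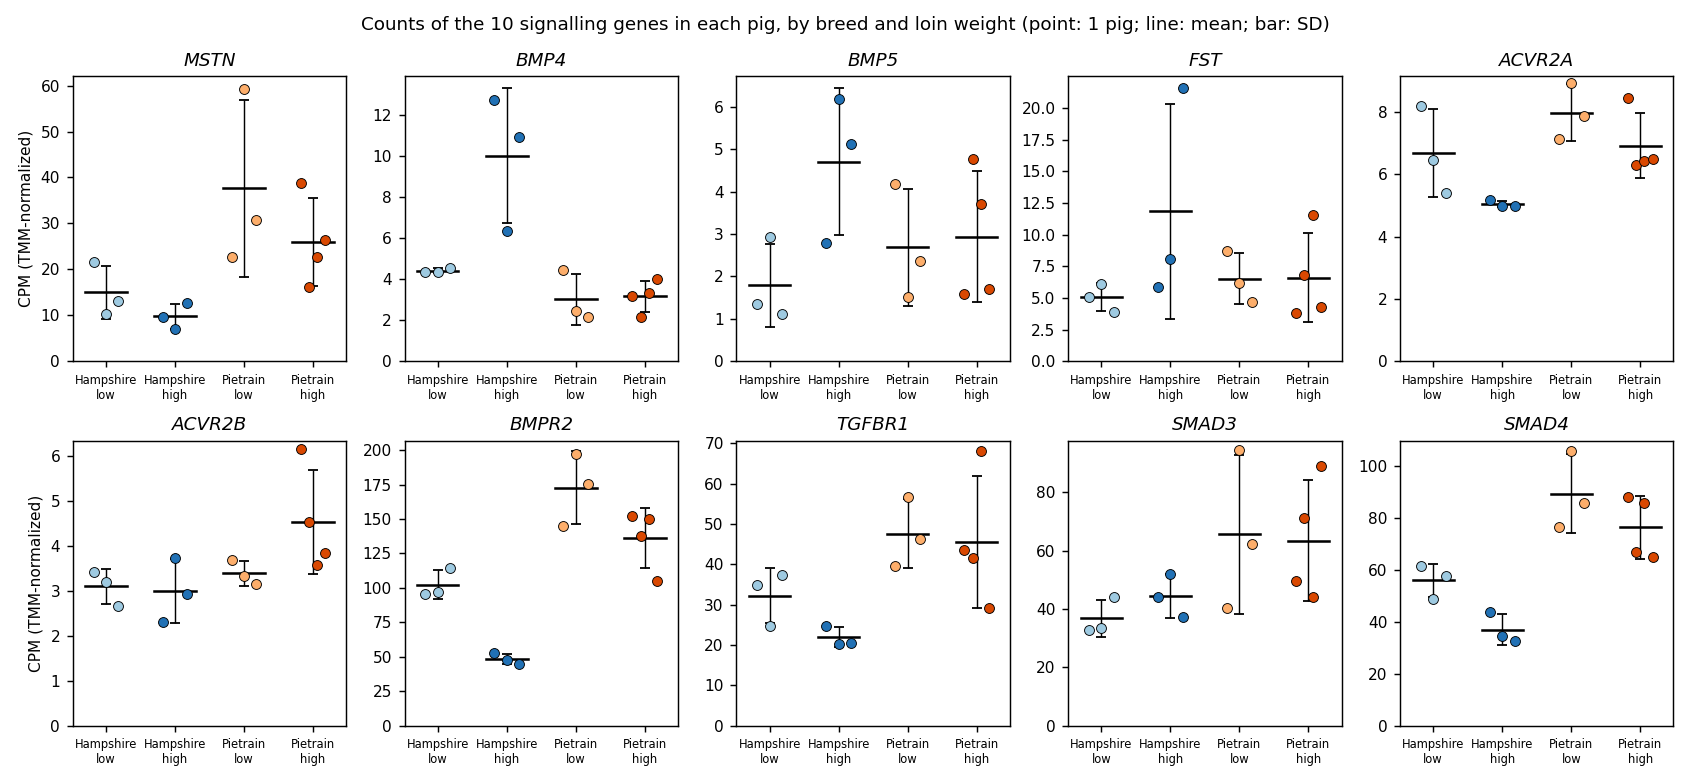
Level of each of the 10 genes in each pig, in TMM-normalized CPM on the y axis (each panel has its own scale, starting at 0), by breed and loin weight on the x axis. Points are pigs, lines are group means and bars are SD. The 3 heavy-loin Hampshire pigs are the lowest for BMPR2, at 45.0 to 52.4 CPM, and the highest for BMP4, at 6.36 to 12.7 CPM.

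In Hampshire pigs with heavy loins, BMP4 and BMP5 were higher and BMPR2 and SMAD4 were lower than in pigs with light loins. BMP4 was 2.27-fold higher, BMP5 2.57-fold higher, BMPR2 2.12-fold lower and SMAD4 1.52-fold lower. MSTN, FST and the other 4 genes did not pass the test. A gene was called when edgeR's quasi-likelihood test gave a Benjamini-Hochberg adjusted p under 0.05 over all genes tested and the fold change was at least 1.2. Of the 10 genes, 4 were called, beside 26.6% of all 12228 genes tested in this comparison. The members called higher were 2, beside 12% of all genes, and those called lower were 2, beside 14.6%. The median log2 fold change of the 10 genes was -0.24 and that of all genes 0.03.

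The log2 fold change of BMPR2 was -1.08 (SE 0.15, 95% interval -1.43 to -0.74, adjusted p = 0.00318). It ran from -1.17 to -1.01 when each Hampshire pig was left out in turn, and BMPR2 was called in all 6 of these fits. For BMP4 the log2 fold change was 1.18 (SE 0.27, interval 0.57 to 1.80, adjusted p = 0.0155). BMP4 was not called without Hampshire high pig 10 (adjusted p = 0.0524) or without Hampshire low pig 3 (adjusted p = 0.0611). The change of SMAD4 was -0.60 (SE 0.17, interval -0.99 to -0.21, adjusted p = 0.0335), and that of BMP5 was 1.36 (SE 0.44, interval 0.37 to 2.35, adjusted p = 0.0488). Both of these lost their call in 4 of the 6 fits, without Hampshire high pig 9, high pig 10, low pig 1 or low pig 3, with an adjusted p between 0.0659 and 0.114 for SMAD4 and between 0.123 and 0.154 for BMP5. BMP5 also had an adjusted p of 0.0822 in the fit over all 13 pigs.

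MSTN differed by -0.62 on the log2 scale in Hampshire (SE 0.32, interval -1.34 to 0.11, adjusted p = 0.178). It did not pass the test, and its heavy and light groups overlapped. FST differed by 1.24 (SE 0.46, interval 0.20 to 2.28, adjusted p = 0.0755). Without Hampshire high pig 10, which held 21.6 CPM, the FST value was 0.45, and without Hampshire high pig 8 it was 1.54 and passed the test (adjusted p = 0.0321). TGFBR1 differed by -0.56 (SE 0.20, interval -1.01 to -0.12, adjusted p = 0.0621) and was called without Hampshire low pig 2 (-0.74, adjusted p = 0.0311). For ACVR2A the value was -0.41 (interval -0.94 to 0.12, adjusted p = 0.218), although its groups did not overlap. ACVR2B stood at -0.06 (interval -0.71 to 0.59, adjusted p = 0.892) and SMAD3 at 0.27 (interval -0.15 to 0.68, adjusted p = 0.3). Counting pigs rather than testing, 4 genes had no overlap between the heavy and light groups, beside 45.9% of all genes tested. BMP4 was higher without overlap, beside 22.4% of all genes, and BMPR2, SMAD4 and ACVR2A were lower, beside 23.5%.

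**Figure D2:**
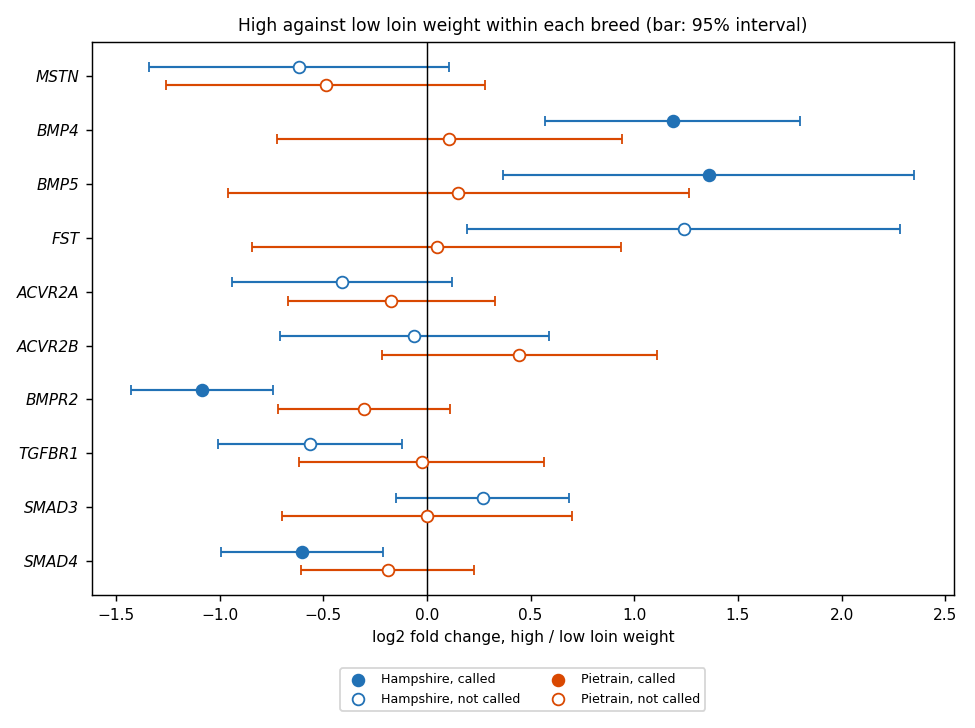
Log2 fold change of high against low loin weight (x axis) for the 10 genes (y axis) in Hampshire and Pietrain. Bars are 95% intervals from the edgeR fit of each breed, and filled points passed the test: BMP4, BMP5, BMPR2 and SMAD4 in Hampshire and none in Pietrain.

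Some sums of cell type markers also differed with loin weight in Hampshire, and no sum was tested. The marker calls below stand beside 26.6% of all genes called, with 12% higher and 14.6% lower. Groups did not overlap for 45.9% of all genes. Of the fibroblast markers, 5 of 6 were found, 2 were called higher, and their sum was 1322 to 3811 CPM in Hampshire high against 542 to 1288 in Hampshire low. The 4 macrophage markers found summed to 25.7 to 60.7 CPM in Hampshire high and 14.5 to 24.3 in Hampshire low, with 1 of the 4 called higher. The 4 smooth muscle markers summed to 172 to 256 and 111 to 152 CPM, with 2 called higher. The 2 adipocyte markers found summed to 6.74 to 29.0 and 1.61 to 5.20 CPM, with 1 called higher, while the sums of the 3 endothelial markers overlapped, at 131 to 146 and 104 to 142 CPM, and none was called. The sums of the 6 skeletal muscle markers overlapped too, at 155331 to 223683 CPM in Hampshire high and 124629 to 186995 in Hampshire low, with 2 called higher and 1 lower. Those of the 2 satellite cell markers found also overlapped, at 4.54 to 5.73 and 3.61 to 5.75 CPM, with none called. No marker found was at 0 in all pigs. BMP4, BMP5 and FST, which were higher in the heavy-loin means, moved in the same direction as the fibroblast, macrophage, smooth muscle and adipocyte sums, and BMPR2 and SMAD4 moved against them. The overlapping sums also had higher medians in Hampshire high, so this direction was shared by every marker list. Medians were 193756 against 151083 CPM for skeletal muscle, 144 against 125 for endothelial and 5.72 against 4.96 for satellite cell markers. The part of cell composition in the changes was not tested, and in bulk muscle fewer cells of a type and less RNA per cell cannot be told apart.

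The called genes also differed in length. Across the Hampshire genes with a deposited position, log2 fold changes fell as the span of the gene rose (rank correlation -0.386, Spearman, over genes that are not independent of each other). BMPR2 spans 171370 bases and BMP4 spans 2449. With this trend removed, BMPR2 differed by -0.68 and passed the test (adjusted p = 0.0133), BMP4 by 0.81 (adjusted p = 0.0624) and SMAD4 by -0.32 (adjusted p = 0.168), and neither BMP4 nor SMAD4 passed. Only 7 of the 10 genes had a span, so no count of members was taken from this fit, and BMP5 could not be examined in it.

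The wider pathway in Hampshire showed calls in both directions, at about the rate of all genes. Of 56 further genes listed by role, 45 were found and 40 tested, of which 5 were higher and 5 lower. These 10 of 40 genes stand beside 26.6% of all genes called, 12% higher and 14.6% lower, and their list had a median log2 fold change of 0.10, beside 0.03 for all genes. The called genes with the smallest adjusted p were DCN, encoding decorin, a matrix proteoglycan that binds TGF-β and myostatin (1.55, adjusted p = 0.0082), and BMPR1A, a type I BMP receptor (-0.93, adjusted p = 0.0086). They were followed by SKIL, a repressor of SMAD-driven transcription (-0.97, adjusted p = 0.0132), SMAD5, a carrier of the BMP signal (-0.59, adjusted p = 0.0242), ZFYVE9, which anchors SMADs near receptors (-0.74, adjusted p = 0.0266), and LTBP3, which holds latent TGF-β in the matrix (1.16, adjusted p = 0.0274). By role, the extracellular inhibitors and binding proteins held 3 genes called higher and none lower among 6 tested, the receptors 1 higher and 1 lower among 8, the SMADs 1 lower among 6, the ligands 1 lower among 6, and the regulators inside the cell 1 higher and 2 lower among 6, and the same shares of all genes apply to each of these small counts. None of the 6 target genes tested, which include the ID genes that BMPs induce, and neither of the 2 proteases tested was called.

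**Figure D3:**
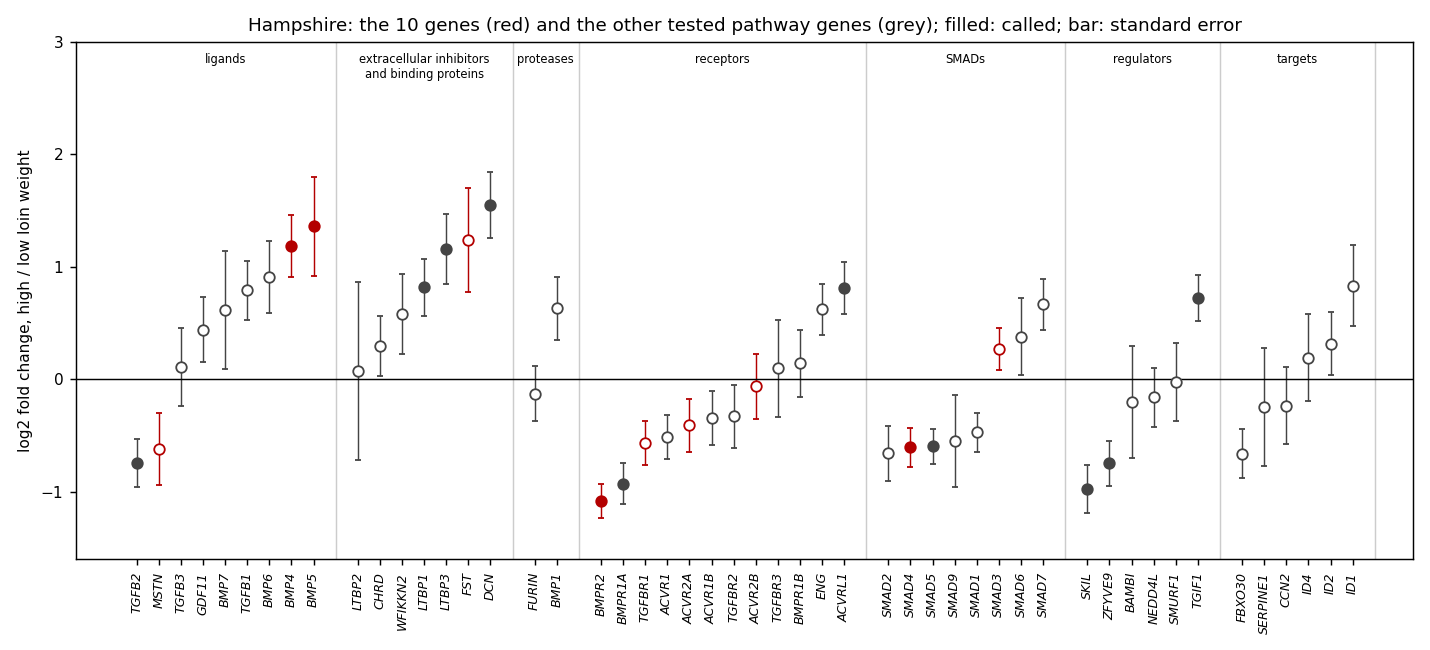
Log2 fold change of high against low loin weight in Hampshire (y axis) for the 10 genes in red and the 40 other tested pathway genes in grey, grouped by role along the x axis. Bars are standard errors and filled points passed the test. BMPR2, at -1.08, is the lowest value drawn, and DCN, at 1.55, the highest.

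In Pietrain none of the 10 genes passed the test, beside 0% of the 12065 genes tested. The smallest adjusted p over all genes was 0.939, 398 genes had an unadjusted p under 0.05 and none of the 10 was among them. DESeq2 called 1 gene, which was not a member. The differences between heavy and light loins were -0.49 for MSTN (interval -1.26 to 0.28), 0.11 for BMP4 (interval -0.72 to 0.94), 0.15 for BMP5 (interval -0.96 to 1.26) and 0.05 for FST (interval -0.84 to 0.94). For the receptors they were -0.31 for BMPR2 (interval -0.72 to 0.11), -0.03 for TGFBR1 (interval -0.62 to 0.56), -0.17 for ACVR2A (interval -0.67 to 0.33) and 0.44 for ACVR2B (interval -0.22 to 1.11). SMAD4 differed by -0.19 (interval -0.61 to 0.22) and SMAD3 by -0.00 (interval -0.70 to 0.70). The groups overlapped for all 10 genes, beside 4.59% of all genes tested whose groups did not. The intervals still hold changes of over 1.2-fold in either or both directions for every member, so the 7 Pietrain pigs do not show that the genes were level. None of the 10 was called with any of the 7 pigs left out, and none of the 38 other pathway genes tested in Pietrain was called.

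Whether the effect of loin weight differed between the breeds was tested directly over all 13 pigs. None of the 10 genes passed, beside 5.9% of all 12831 genes tested (1.68% higher and 4.22% lower). An unadjusted p under 0.05 was found for 2 of the 10, beside 2835 of the 12831 genes. DESeq2 called 1 of the 10, beside 6.49% of the 19198 genes it tested. For BMPR2 the log2 effect in Hampshire minus that in Pietrain was -0.74 (SE 0.25, interval -1.28 to -0.20, adjusted p = 0.0982 in edgeR and 0.0437 in DESeq2). For BMP4 the difference was 1.10 (SE 0.46, interval 0.13 to 2.08, adjusted p = 0.169). MSTN gave -0.08 (interval -1.22 to 1.06), a wide interval on both sides of 0. The call of BMP4, BMP5, BMPR2 and SMAD4 in Hampshire and not in Pietrain does not show that their response differs between breeds.

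Averaged over both breeds, which uses the same pigs as the comparisons within them, BMPR2 was lower in pigs with heavy loins and was the only member to pass. Its log2 fold change was -0.71 (SE 0.12, interval -0.98 to -0.44, adjusted p = 0.00482), a 1.64-fold lower level, and it passed in all 13 fits that left out a pig. This 1 call among 10 genes stands beside 10.7% of all genes called, with 7.71% called lower and 3.01% higher. Within the breeds BMPR2 changed by -1.08 in Hampshire and by -0.31 in Pietrain (interval -0.72 to 0.11), where it did not pass. In the average, log2 fold changes also fell with gene span (rank correlation -0.355), and no fit removed that trend. SMAD4 had -0.41 (adjusted p = 0.0603), BMP4 0.63 (adjusted p = 0.0877) and MSTN -0.57 (interval -1.14 to -0.00, adjusted p = 0.17). Of the other pathway genes, DCN was higher (0.88, adjusted p = 0.0277) and BMPR1A (-0.63, adjusted p = 0.0159), SMAD5 (-0.54, adjusted p = 0.0225), SMAD2, which works beside SMAD3 (-0.69, adjusted p = 0.029), and SKIL (-0.69, adjusted p = 0.043) were lower, among 39 tested, beside the same shares of all genes.

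Between the breeds, MSTN, BMPR2 and SMAD4 were lower in Hampshire than in Pietrain at both loin weights. Among pigs with light loins, MSTN was 2.51-fold lower (log2 fold change -1.33, SE 0.39, adjusted p = 0.0347), BMPR2 1.69-fold lower (-0.75, SE 0.18, adjusted p = 0.0191) and SMAD4 1.60-fold lower (-0.68, SE 0.19, adjusted p = 0.0315). These were 3 of the 10 genes, beside 17.9% of all genes called, with 10.1% called lower and 7.84% higher. All 3 calls were lost without Hampshire low pig 2, Pietrain low pig 5 or Pietrain low pig 8, and only BMPR2 remained called without Hampshire low pig 3. The calls over all genes fell in the same fits, from 2300 to between 109 and 501. TGFBR1 did not overlap between the breeds either (-0.56, adjusted p = 0.149), which made 4 genes without overlap, all lower, beside 42.8% of all genes (21.4% lower and 21.4% higher). The others gave -0.84 for SMAD3 (adjusted p = 0.0708), 0.55 for BMP4 (adjusted p = 0.251), -0.56 for BMP5, -0.36 for FST, -0.25 for ACVR2A and -0.13 for ACVR2B.

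Among pigs with heavy loins, 5 of the 10 genes were called, beside 46.8% of all genes, a share near that background. BMP4 was the 1 gene called higher, beside 22.6% of all genes, and 4 were called lower, beside 24.2%. BMP4 was 3.15-fold higher in Hampshire (log2 fold change 1.66, SE 0.31, adjusted p = 0.000738). BMPR2 was 2.82-fold lower (-1.49, SE 0.18, adjusted p = 3.38e-05), MSTN 2.65-fold lower (-1.41, SE 0.38, adjusted p = 0.00815), TGFBR1 2.08-fold lower (-1.06, SE 0.26, adjusted p = 0.00451) and SMAD4 2.07-fold lower (-1.05, SE 0.19, adjusted p = 0.000578). Each of the 5 was called in all 13 fits that left out a pig. The groups did not overlap for these 5 genes and for ACVR2A (-0.45, adjusted p = 0.0898), beside 48.7% of all genes (24% higher and 24.6% lower). FST (0.85, adjusted p = 0.13), BMP5 (0.68, adjusted p = 0.259), ACVR2B (-0.60, adjusted p = 0.0828) and SMAD3 (-0.52, adjusted p = 0.157) did not pass. The other pathway genes called numbered 9 higher and 6 lower of 39 tested, beside 22.6% and 24.2% of all genes, led by BMPR1A (-1.72, adjusted p = 3.7e-05), SKIL (-1.85, adjusted p = 0.00025), ZFYVE9 (-1.01, adjusted p = 0.000496), LTBP3 (1.96, adjusted p = 0.000583), BMP6, another BMP ligand (1.54, adjusted p = 0.00109), and TGFB1, the ligand TGF-β1 (1.50, adjusted p = 0.00124). In light-loin pigs 5 of 39 pathway genes were called, beside 17.9% of all genes, namely BMPR1A (-1.14, adjusted p = 0.0101), SKIL (-1.30, adjusted p = 0.016) and BMPR1B, another type I BMP receptor (-0.91, adjusted p = 0.049), lower, and FURIN, a protease that cleaves precursors of these ligands (0.91, adjusted p = 0.046), and BMP6 (1.00, adjusted p = 0.0497) higher.

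**Figure D4:**
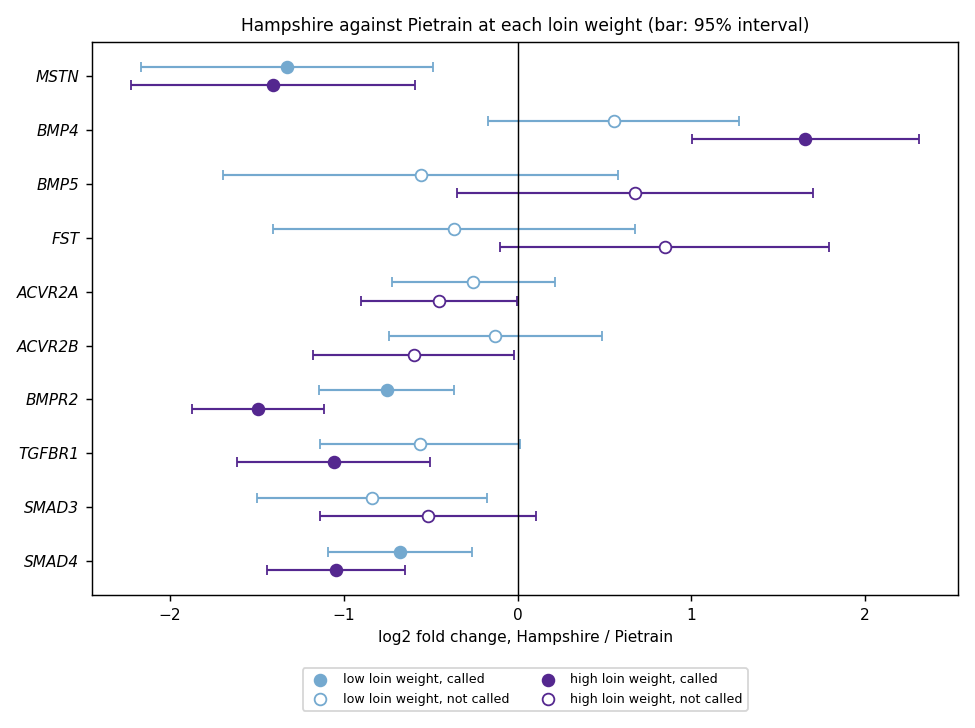
Log2 fold change of Hampshire against Pietrain (x axis) for the 10 genes (y axis) among pigs with low and high loin weight. Bars are 95% intervals from the edgeR fit over 13 pigs and filled points passed the test: MSTN, BMPR2 and SMAD4 at both loin weights, and BMP4 and TGFBR1 at high loin weight.

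The breed comparisons share their Hampshire and Pietrain pigs with the comparisons of loin weight, and breed cannot be told apart from anything that was handled breed by breed. The 10 most abundant genes took 31.2% to 37.7% of the counts in Hampshire pigs and 26.4% to 29.8% in Pietrain pigs. Macrophage markers summed to 5.43 to 11.6 CPM in Pietrain, below the 14.5 to 60.7 CPM of Hampshire. Of the 4 found, 2 were called higher in Hampshire at low loin weight and 4 at high. Smooth muscle markers summed to 75.4 to 140 CPM in Pietrain and 111 to 256 in Hampshire, with 0 and 3 called higher. Skeletal muscle markers summed to 78647 to 148480 and 124629 to 223683 CPM. Of 6, none was called at low loin weight, and 2 higher and 1 lower at high. The fibroblast, adipocyte, endothelial and satellite cell sums also overlapped. Of all genes, 17.9% were called at low loin weight (7.84% higher) and 46.8% at high (22.6% higher). Log2 fold changes between breeds also fell with gene span, with a rank correlation over genes of -0.391 in heavy-loin and -0.215 in light-loin pigs. The part of these differences in the breed results was not tested.

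Several of the 10 genes rose and fell together from pig to pig. BMPR2 and SMAD4 had a Pearson correlation of log2 CPM of 0.963 over the 13 pigs and of 0.765 once each group was centred on its mean, and TGFBR1 and SMAD4 had 0.924 and 0.779. MSTN and ACVR2A had 0.874 and 0.741. MSTN and BMP5 ran against each other, with -0.528 and -0.758. Among 9814 genes with a symbol, those most like MSTN over the pigs were TMEM19 (0.961), SLU7 (0.959), KIAA0368 (0.951), STK38 (0.946) and ELF2 (0.943). The single most similar gene was ALKBH7 for BMP4 (0.960), GSPT2 for BMP5 (0.919), LAMA4 for FST (0.872), GTF2I for ACVR2A (0.920), BAP1 for ACVR2B (0.833), WDR26 for BMPR2 (0.992), MIER3 for TGFBR1 (0.965), GALM for SMAD3 (0.860) and CHUK for SMAD4 (0.997). These values describe the 13 libraries, in which the points share groups, depth and composition, and carry no test.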

How the data were processed

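RNA-seq counts of 13 pigs were analysed. The authors isolated RNA from muscle kept in RNAlater, built libraries with the TruSeq RNA kit v2, which does not mark strand, sequenced them on a HiScanSQ as single ends in 4 technical runs, and aligned the reads to Sscrofa10.2. The submitters' processing notes name FastQC, STAR, RSEM and DESeq2. The deposited values are whole, unnormalized counts of reads per Ensembl gene, 1 column per pig and 1 table per breed. The authors' tables of their own comparisons hold fold changes, test statistics and p-values, and these were not used. Only the symbols and gene positions in those tables were. Of 25322 gene identifiers, 13168 had a symbol, from these tables or from RefSeq.

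Tests were run with edgeR 4.0.16 in R 4.3.3 (TMM, filterByExpr by group, glmQLFit and glmQLFTest) on each breed alone, and on all 13 pigs in 4 groups for the comparisons across breeds. A call needed a Benjamini-Hochberg adjusted p-value under 0.05 over all genes tested and a fold change of at least 1.2. Each standard error was the size of the fitted log2 change over the square root of F, and 95% intervals came from the t distribution with the degrees of freedom of the fit. Correlations used log2 CPM with a prior count of 2. The p-values measure the spread between unrelated pigs. The tests were also run on simulated counts, in which a small share of genes was changed strongly. That check does not cover small changes or changes in a large share of genes.

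The 10 genes and all lists were chosen with earlier results of these data known. All 10 are named in each comparison, and of the other pathway genes the text names those called, at most the 6 with the smallest adjusted p per comparison. Genes most like a member had the highest Pearson correlation, 5 for MSTN and 1 for each other gene. The paper's table of muscle weights gives 3 Pietrain pigs of high loin weight, while its methods name 13 pigs and the labels give 4. Which labelled pig that table does not count is not given in the sources used here. All 4 labelled pigs were therefore used, and each was also left out in turn. Alternatives were DESeq2 1.42.0, its size factors in edgeR, no filter, at least 10 counts in every pig, no fold change threshold, 1 fit over all pigs, removal of the trend with gene span (lowess, span 0.5, breeds alone) and leaving out each pig. Plots used matplotlib 3.10.9 (Python 3.11.15).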

Additional observations from a re-analysis of the deposited data

Results flagged for a closer look

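ACVR2A in Pietrain pigs with high loin weight held 1 pig apart from the others. Pig 1 stood at 8.47 CPM, and its distance from the next pig was 0.905 of the range of the 4 pigs, above Dixon's 95% limit. It was the only such value among the 10 genes screened in this group of 4 pigs. Chance alone gives about 1 in 20 for each gene, so 1 flag among 10 genes is not rare. The ACVR2A difference between heavy and light loins in Pietrain did not pass the test with or without this pig.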

How the results depend on the processing

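Of 984 values of the 10 genes recomputed under the alternatives, 916 kept their direction and their side of the threshold. This total includes the setting without a fold change threshold, which reused the main fits, so its log2 fold changes could not differ. It also includes Pietrain, where the smallest adjusted p over all genes in the main edgeR fit was 0.939. With DESeq2 in place of edgeR, 1 of the 10 genes was called for the difference between breeds, beside 6.49% of all genes. It called 2 for the average over breeds, beside 10.6%. At least 10 counts in every pig also gave 2 for the average, beside 14.6% of all genes. SMAD4 was the added gene in the average (adjusted p = 0.0241 and 0.0452). FST in Hampshire passed under DESeq2 (adjusted p = 0.0287), as did SMAD3 between breeds at low loin weight (0.032), and TGFBR1 in Hampshire passed with at least 10 counts in every pig (0.0367).

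Leaving out each pig in turn gave 1 to 5 genes called in Hampshire, beside 9.8% to 24.2% of all genes (1224 to 3049). It left 1 gene without high pig 10, beside 14% of all genes, and 1 without low pig 3, beside 9.8%. For the difference between breeds it gave 0 to 1 (BMPR2 without Pietrain high pig 7), beside 2.86% to 8.21% of all genes called. The average had 1 to 3 (3 without Pietrain low pig 3), beside 5.12% to 18%. Between breeds at low loin weight there were 0 to 4, beside 0.828% to 24.1%. At high loin weight there were 5 to 7, beside 35% to 49.3%.

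The values that changed sign passed no test. In Pietrain, TGFBR1 was 0.0080 with at least 10 counts in every pig, and SMAD3 was 0.0010 without a filter, 0.036 with at least 10 counts and 0.029 with the trend in gene span removed. Without each pig in turn, Pietrain values ran from -0.086 to 0.53 for BMP4, -0.16 to 0.65 for BMP5, -0.35 to 0.35 for FST, -0.27 to 0.13 for TGFBR1 and -0.23 to 0.33 for SMAD3. ACVR2B ran from -0.27 to 0.063 in Hampshire and from -0.19 to 0.0085 between breeds at low loin weight, SMAD3 from -0.020 to 0.29 in the average and from -0.081 to 0.53 for the difference between breeds, and MSTN from -0.62 to 0.21 for that difference. The cause of these shifts was not tested.

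Removal of the trend with gene span was not run over 13 pigs, since under 80% of those genes had a position. No paired analysis was possible because each pig belonged to a single group and the pigs were unrelated. BMP5, BMP4 and ACVR2B had the lowest counts in a single pig, at 16, 31 and 34, and with 3 or 4 pigs per group small changes could not be detected.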
